A study of Mus musculus with 4 samples.

Results

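Hepatocyte identity is held by a small network of DNA-binding proteins, and 9 of them were followed here across cell classes, liver zones and age: Hnf4a, Foxa1, Foxa2, Foxa3, Cebpa, Onecut1, Onecut2, Prox1 and Nr5a2. They were chosen by symbol from the 32285 genes of the count tables, each symbol stood for exactly 1 gene identifier, and all 9 passed the low-count filter in hepatocytes. The study counted nuclear RNA, nucleus by nucleus, with the 10x Chromium 3′ droplet assay. Livers had been frozen, and the mice were male, wild-type and of the inbred strain C57BL6/J. There were 2 aged libraries (30 months) and 2 young libraries (2 months). No treatment, transgene or mutation is named for either group. Whether the replicates of an age are separate animals is not stated in the labels, so p-values measure no more than the spread between these samples, and that spread may be technical.

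Several of these factors are known to bind one another's promoters and the enhancers of liver genes, and to help keep one another on. Hnf4a is the nuclear receptor that drives most hepatocyte genes, and the Foxa proteins are pioneer factors that open closed chromatin for others. Cebpa is a leucine zipper factor of metabolic genes, the Onecut proteins act in hepatocyte and bile duct development, Prox1 is a homeobox factor of hepatocyte and lymphatic development, and Nr5a2 (LRH-1) is the nuclear receptor of bile acid synthesis. Hepatocytes near the portal vein and near the central vein do different work, periportal cells making glucose and urea and pericentral cells handling glutamine, bile acids and drugs.

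The deposited tables held 11362 and 14267 barcodes in the aged libraries and 2666 and 14718 in the young ones. After filtering, 33262 of 43013 barcodes remained, of which 24097 were hepatocyte-like, with 5502 and 8274 in aged and 1360 and 8961 in young libraries. All 12 hepatocyte markers had UMIs in the hepatocyte-like nuclei of every library. Depth was uneven, with a median of 2110 and 2972 UMIs (counted RNA molecules) per hepatocyte-like nucleus in aged and 3571.5 and 924 in young libraries. Different clusters held the hepatocyte-like nuclei of each library. Of 33149 distinct barcode sequences among the kept nuclei, 112 occurred in 2 or more libraries. Hepatocyte RNA was found in the droplets of every class, and its level is given beside each result outside hepatocytes.

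On mm10 (GRCm38), the genes were placed by GENCODE vM21. Hnf4a (ENSMUSG00000017950) spans chr2:163506808-163572910 on the plus strand, and the antisense gene Hnf4aos shares 34.9 kb with it. Foxa1 (ENSMUSG00000035451) lies at chr12:57540628-57546916, Foxa2 (ENSMUSG00000037025) at chr2:148042877-148046969 and Foxa3 (ENSMUSG00000040891) at chr7:19013284-19023538, all on the minus strand. Cebpa (ENSMUSG00000034957), at chr7:35119293-35121928 on the plus strand, has no intron in the annotation. Onecut1 (ENSMUSG00000043013) lies at chr9:74861921-74891781 on the plus strand, and Onecut2 is ENSMUSG00000045991. Prox1 (ENSMUSG00000010175), at chr1:190118035-190170714, and Nr5a2 (ENSMUSG00000026398), at chr1:136842571-136960448, lie on the minus strand. Exons make up 5% of the Nr5a2 span and 100% of the Cebpa span, so unspliced nuclear RNA weighs very differently on the genes.

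The letters that these proteins are known to bind were looked for upstream of the members' own starts, since the network is known for such cross-binding. RefSeq promoters (GRCm38.p6) were found for 8 of the 9 genes, 13 in all, and the 200 bases from 250 to 51 before each start were searched on both strands. The 5 stretches shown lie outside annotated exons and each held a match to letters of the network, which they show at Hnf4a, Foxa1, Foxa2 and Nr5a2. Capitals mark the matched letters, TGTTTAC or TGTTTGC for FOXA, ATTGAT or ATCGAT for ONECUT and GTTAAT for the HNF1 core, taken from the site of a partner factor, or their reverse complements. These motifs do not overlap one another in the stretches.
Hnf4a upstream start, chr2:163506607-163506806, plus strand: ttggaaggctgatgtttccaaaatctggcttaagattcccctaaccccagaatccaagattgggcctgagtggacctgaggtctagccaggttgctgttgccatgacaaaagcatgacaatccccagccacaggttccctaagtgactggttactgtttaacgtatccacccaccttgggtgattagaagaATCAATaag
Hnf4a downstream start, chr2:163546943-163547104, plus strand: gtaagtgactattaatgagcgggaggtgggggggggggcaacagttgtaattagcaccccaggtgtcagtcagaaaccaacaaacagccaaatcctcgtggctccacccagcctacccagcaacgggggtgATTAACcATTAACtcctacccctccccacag
Foxa1, chr12:57546162-57546361, minus strand: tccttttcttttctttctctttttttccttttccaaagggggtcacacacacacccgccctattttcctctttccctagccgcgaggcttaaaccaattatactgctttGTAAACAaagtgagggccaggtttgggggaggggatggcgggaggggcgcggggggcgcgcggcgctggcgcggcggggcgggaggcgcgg
Foxa2, chr2:148047020-148047219, minus strand: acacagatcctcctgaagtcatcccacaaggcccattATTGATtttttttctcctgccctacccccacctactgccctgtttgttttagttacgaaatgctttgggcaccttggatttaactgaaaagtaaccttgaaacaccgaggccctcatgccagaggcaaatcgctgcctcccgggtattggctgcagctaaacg
Nr5a2, chr1:136960499-136960698, minus strand: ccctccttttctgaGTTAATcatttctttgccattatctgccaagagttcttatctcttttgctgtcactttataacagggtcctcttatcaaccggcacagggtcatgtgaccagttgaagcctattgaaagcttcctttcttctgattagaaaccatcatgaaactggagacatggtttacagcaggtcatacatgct
The ONECUT match began 59 bases before the upstream Hnf4a start and 213 bases before the Foxa2 start. Both HNF1 cores of the downstream Hnf4a start stood side by side, from 81 bases before it. Among all 32851 promoters the same window held the FOXA letters in 5.98%, the ONECUT letters in 6.38% and the HNF1 core in 5.33%. Another Foxa2 window held an HNF1 core (176 bases before its start) and another Prox1 window the FOXA letters (120 bases before). The windows of Foxa3, Cebpa and Onecut1 held none of these letters. No window of the members held those of HNF4 (CAAAGTCCA), NR5A2 (CAAGGTCA), TCF (CTTTGAT) or C/EBP (TTGCGCAA, TTGCGTAA or TTGCACAA), which 0.295%, 1.12%, 2.64% and 1.04% of all promoters held. A match is a description of letters and not a bound site.

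Compared per kb of gene span in hepatocyte-like nuclei, Cebpa, Onecut1 and Foxa2 stood highest and Nr5a2 lowest. Counts of a 3′ assay need not scale with length, and which length applies was not tested. Division by span lifts short genes such as Cebpa (2.64 kb) over long ones such as Nr5a2 (118 kb). The unscaled level was 26.5 ± 16.1 CPM per kb for Cebpa, 24.5 ± 3.24 for Onecut1 and 17.8 ± 2.84 for Foxa2 (SD, n = 4 libraries). It was 9.41 ± 2.0 CPM per kb for Hnf4a, 9.01 ± 2.39 for Onecut2 and 8.83 ± 5.17 for Foxa3, which did not differ beyond their spread. Foxa1 lay at 4.77 ± 0.876, Prox1 at 4.14 ± 0.612 and Nr5a2 lowest at 2.47 ± 0.615 CPM per kb of span. Per kb of exon the order changed, with Onecut1 first at 178 ± 23.6, Hnf4a next at 129 ± 27.4 and then Nr5a2 at 49.5 ± 12.3 CPM, and Foxa1 last at 9.01 ± 1.65. Onecut1 was thus among the highest by either length, whereas the places of Cebpa and Nr5a2 depended on the length used. Not divided by length, the mean unscaled level was highest for Onecut1 (733 CPM), Hnf4a (622) and Onecut2 (550). Nr5a2 (292) and Prox1 (218) followed, and Foxa3 (90.9), Foxa2 (72.7), Cebpa (70.0) and Foxa1 (30.0) were lowest. Foxa3 and Cebpa varied most between libraries, with the highest library at 4.9 and 3.15 times the lowest in unscaled CPM, against a median of 1.81 times over the 9028 genes that averaged at least 10 CPM.

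Across liver zones 4 of the 9 factors passed, and so few members do not set the list apart from all genes. Onecut1 and Foxa3 were lower in pericentral than in periportal nuclei, while Onecut2 and Nr5a2 were higher, so that the Onecut pair went opposite ways. These calls compare zones within a library, and without the library as a block none of the 4 passed. The hepatocyte-like nuclei of each library were ordered by the mean level of 10 pericentral landmark genes less that of 10 periportal ones, which include none of the 9 factors and none of the listed genes below. Each library was cut into 3 equal parts, and the outer parts, which are ranges of a score and no cell types, were summed. The pericentral enzyme Glul is itself a landmark, so its difference between the parts follows from the cut. It had 281, 503, 812 and 757 unscaled CPM in the pericentral parts, against 6.91, 10.4, 35.5 and 46.5 in the periportal parts. These values are in the order aged 1, aged 2, young 1 and young 2. Tbx3, which is no landmark, had 41.7, 51.2, 42.2 and 115 unscaled CPM in the pericentral parts in the same order. In the periportal parts Tbx3 had 2.36, 1.22, 4.23 and 8.7. In edgeR's quasi-likelihood test with the library as a block, 2 of the 9 factors passed as higher and 2 as lower in pericentral nuclei, where 11.4% and 10.7% of the 12542 genes tested did so. All 4 of these lay on the same side in every library, as did Hnf4a, where 18.9% of genes were higher and 19.4% lower in all 4 libraries.

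Onecut1 (HNF-6), which binds the same letters as Onecut2, had 598, 680, 728 and 476 unscaled CPM in the pericentral parts of aged 1, aged 2, young 1 and young 2, against 738, 926, 877 and 760 in the periportal parts. It was lower in pericentral nuclei of every library, with a log2 fold change of -0.42 ± 0.08 (SE, edgeR adjusted p = 0.00517). Onecut2 had 532, 576, 816 and 524 unscaled CPM in the pericentral parts, against 422, 412, 670 and 406 in the periportal parts. It was higher in pericentral nuclei of every library (log2 fold change 0.38 ± 0.07, SE, edgeR adjusted p = 0.0031). The ratio of Onecut2 to Onecut1 UMIs was 0.89, 0.846, 1.12 and 1.1 in the pericentral parts of aged 1, aged 2, young 1 and young 2, against 0.572, 0.445, 0.763 and 0.535 in the periportal parts. The middle part lay between them in each library, at 0.679, 0.557, 0.937 and 0.698. The log2 ratio was higher by 0.79 ± 0.231 in pericentral nuclei (SD, n = 4, higher in 4 of 4 libraries). The two-sided exact paired permutation p was 0.125, the smallest that 4 libraries can give. With Onecut1 lower and Onecut2 higher in every library, this direction and p were fixed in advance, so the ratio adds no further support.

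Foxa3, the Foxa member known for glucose and lipid genes in the adult liver, had 26, 78.6, 64.8 and 127 unscaled CPM in the pericentral parts, against 39.6, 135, 69.3 and 178 in the periportal parts. It was lower in pericentral nuclei of every library, least in young 1 (log2 fold change -0.53 ± 0.10, SE, edgeR adjusted p = 0.00509). The sister genes Foxa1 and Foxa2 did not pass, at log2 fold changes of 0.10 ± 0.09 and 0.12 ± 0.07 (SE). Nr5a2, a known activator of bile acid genes, had 404, 329, 282 and 261 unscaled CPM in the pericentral parts, against 356, 308, 176 and 194 in the periportal parts. It was higher in pericentral nuclei of every library (log2 fold change 0.34 ± 0.10, SE, edgeR adjusted p = 0.0308). Without young replicate 1 or young replicate 2 the Nr5a2 difference no longer passed (log2 fold changes 0.25 and 0.31, edgeR adjusted p = 0.106 and 0.122).

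**Figure D1:**
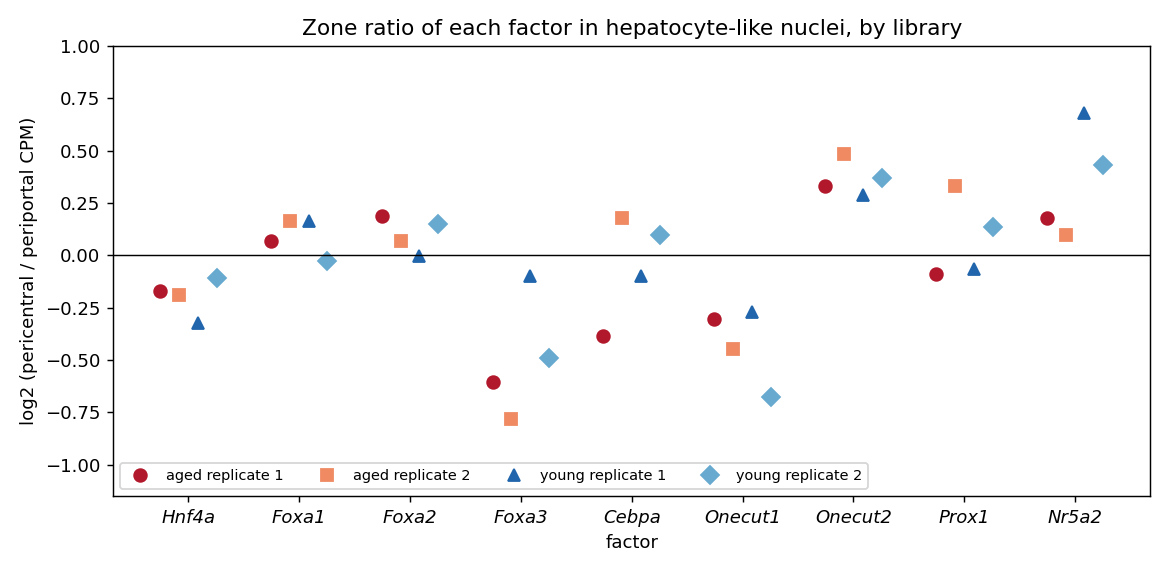
Log2 ratio of the pericentral over the periportal level (unscaled CPM of the outer of 3 equal parts of the zone score) of each factor, 1 point per library, aged libraries left of young ones. Onecut1 and Foxa3 lie below 0 and Onecut2 and Nr5a2 above 0 in all 4 libraries.

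Hnf4a was slightly lower in pericentral nuclei of every library and did not pass, with 664, 686, 417 and 552 unscaled CPM in the pericentral parts against 746, 783, 521 and 595 in the periportal parts (log2 fold change -0.19 ± 0.07, SE, edgeR adjusted p = 0.0831). Prox1 and Cebpa stood on different sides in different libraries, at ratios of pericentral over periportal level of 0.941, 1.26, 0.956 and 1.1 for Prox1 and 0.765, 1.13, 0.935 and 1.07 for Cebpa. Their log2 fold changes were 0.09 ± 0.08 and -0.03 ± 0.10 (SE), neither past the threshold. The sums of the parts differed in depth, with a median of 2907, 3156, 3847 and 981 UMIs per pericentral nucleus of aged 1, aged 2, young 1 and young 2, against 2601.5, 3473.5, 3019 and 922 per periportal nucleus. The pericentral nuclei were deeper in 3 of 4 libraries and shallower in aged 2. Nuclei of the middle part had medians of 1094, 2219, 3825 and 871 UMIs in the same order. Whether depth played a part in the zone differences was not tested.

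The score was also cut into 5 equal bins. These cannot tell a gradual change from a step, since nuclei placed in a wrong bin would blur a step. Onecut2 went from 426, 411, 643 and 381 unscaled CPM in the most periportal bin of aged 1, aged 2, young 1 and young 2 up to 550, 573, 826 and 517 in the most pericentral bin. Onecut1 stood at 751, 915, 884 and 749 in the most periportal bin and at 562, 649, 695 and 412 unscaled CPM in the most pericentral one. For Foxa3 the level of the most pericentral bin was 0.548, 0.501, 0.846 and 0.676 times that of the most periportal bin. For Nr5a2 the same ratio was 1.21, 1.03, 1.77 and 1.4, so the 2 young libraries had the steeper slope. Each step went the same way in 2 libraries for Foxa3, Onecut2 and Nr5a2 and in 1 library for Onecut1, and Hnf4a had no such library.

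**Figure D2:**
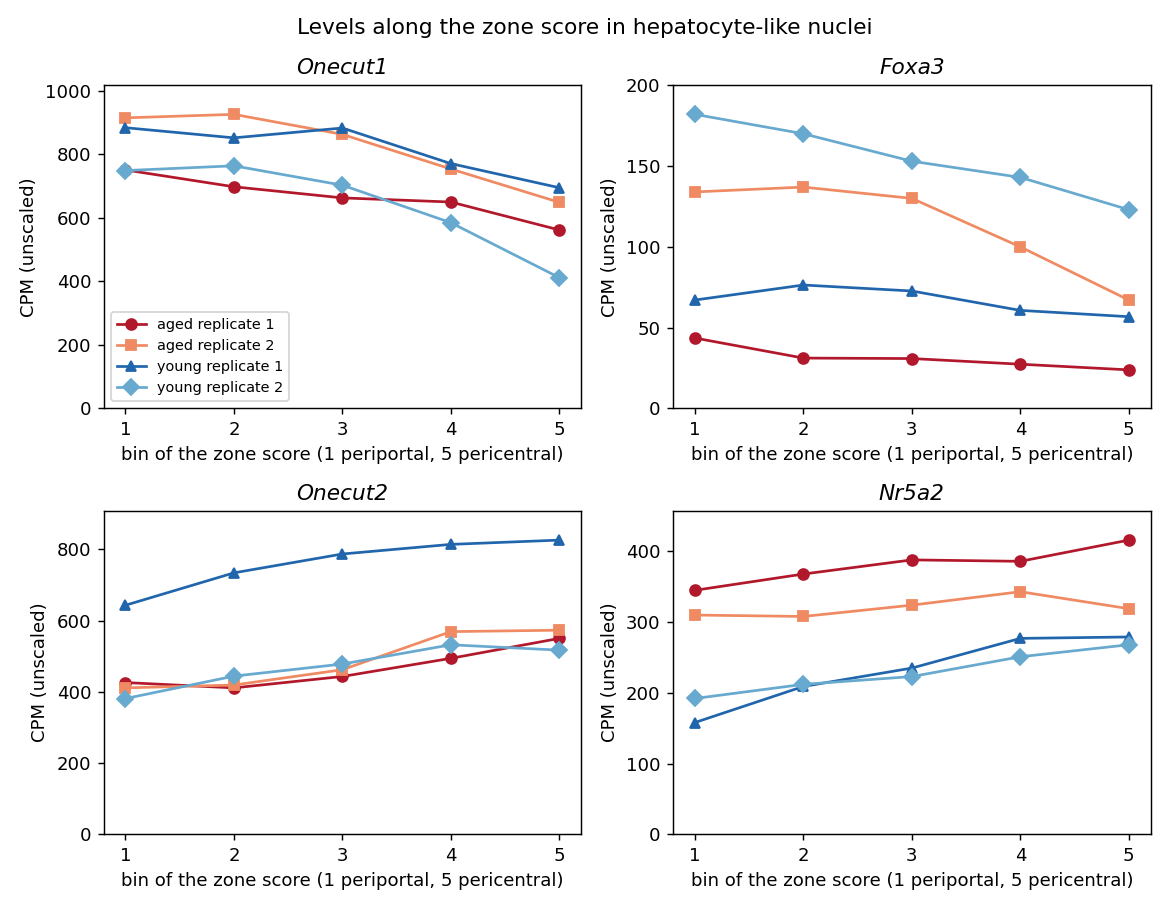
Level of the 4 zoned factors (unscaled CPM, linear axis from 0) in 5 equal bins of the zone score, from the most periportal (1) to the most pericentral (5), 1 line per library. Onecut1 and Foxa3 fall and Onecut2 and Nr5a2 go up toward the pericentral end, with Nr5a2 in aged replicate 2 nearly flat.

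Whether age altered these slopes was asked with a zone by age term. None of the 9 factors passed, where 0.0877% of 12542 genes did (11 genes). The largest terms were those of Nr5a2 at -0.40 ± 0.14 and Foxa3 at -0.37 ± 0.17 (log2, SE, edgeR adjusted p = 0.738 and 0.84), negative meaning that the pericentral over periportal ratio was lower in aged libraries. For Onecut1 and Onecut2 the terms were 0.10 ± 0.16 and 0.09 ± 0.13 (log2, SE), both within their error.

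Other liver factors and the genes these factors are known to drive were read in the same zone test. Of 34 other liver factors, 33 were tested and 8 passed as higher and 7 as lower in pericentral nuclei (11.4% and 10.7% of all genes did), with a median log2 fold change of 0.02 against -0.01 over all genes. Tbx3, a Wnt-induced repressor, stood highest, at 44.2, 50.5, 44.6 and 105 TMM-scaled CPM in the pericentral parts against 2.47, 1.2, 4.48 and 7.89 in the periportal parts (log2 fold change 4.28 ± 0.23, SE, edgeR adjusted p = 2.26e-06). Nr1i3 (CAR), the drug-sensing receptor, was higher by 1.92 ± 0.18, the fatty acid receptor Ppara by 0.78 ± 0.08 and its partner Rxra by 0.66 ± 0.07 (log2 fold change, SE, edgeR adjusted p = 7.02e-05, 0.000111 and 0.000121). Ppargc1a, the coactivator of gluconeogenesis, was lower by -1.20 ± 0.16 on the log2 scale (SE, edgeR adjusted p = 0.00048). Among the paralogs, Hnf4g had 3.78, 3.47, 6.57 and 4.95 TMM-scaled CPM in the pericentral parts against 16.1, 9.28, 21.3 and 13.3 in the periportal parts (log2 fold change -1.65 ± 0.18, SE, edgeR adjusted p = 0.000144). Cebpb passed as higher in pericentral nuclei (0.36 ± 0.10, SE, edgeR adjusted p = 0.0324).

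Of 32 textbook target genes, 3 passed as higher, a share near the 11.4% of all genes, and 18 as lower in pericentral nuclei (10.7% of all genes), with a median log2 fold change of -0.32 against -0.01 over all genes. The plasma protein precursor Ambp (-0.94 ± 0.08) and the urea cycle enzyme Cps1 (-0.88 ± 0.08) were lower (log2 fold change, SE, edgeR adjusted p = 3.91e-05 and 7.56e-05). Of the bile acid enzymes on the list, Cyp7a1 and Cyp27a1 passed as higher in pericentral nuclei and Cyp8b1 did not pass (log2 fold change 0.61 ± 0.21, SE, edgeR adjusted p = 0.062). Cyp7a1, the rate-limiting step of bile acid synthesis and a target of Nr5a2, had 522, 236, 281 and 481 TMM-scaled CPM in the pericentral parts against 148, 24.1, 45.9 and 138 in the periportal parts (log2 fold change 2.34 ± 0.22, SE, edgeR adjusted p = 7.19e-05). Cyp27a1, of the alternative route, was higher by 1.49 ± 0.13 on the log2 scale (SE, edgeR adjusted p = 4.69e-05). The periportal bias of plasma protein and urea genes is textbook knowledge, and a target such as Cps1 shares its zone with the periportal landmarks of the score.

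Between aged and young livers, no factor passed in hepatocyte-like nuclei. The background was low, since 0.039% of 15367 genes passed as higher, 0.00651% as lower and 0.0456% in all (6 and 1 genes), although 2841 had an unadjusted p under 0.05. The groups did not overlap for 3 of the 9 factors (51.5% of all genes), 2 above and 1 below, where 25.7% of all genes had both aged above both young libraries and 25.7% both below. The median log2 fold change of the 9 was -0.14, against -0.02 over all genes. In nuclear sums of this kind, fewer transcribing nuclei and less RNA per nucleus cannot be told apart.

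Hnf4a had 729 and 743 TMM-scaled CPM in aged libraries, against 494 and 522 in young ones. Both aged libraries stood above both young ones, and the difference did not pass (log2 fold change 0.53 ± 0.39, SE, edgeR adjusted p = 0.498). Its antisense partner Hnf4aos stood at 435 and 488 in aged, against 252 and 160 TMM-scaled CPM in young libraries (1.16 ± 0.39, SE, edgeR adjusted p = 0.203). The strand setting of the counting is not given in the sources used here, so RNA from the shared stretch of Hnf4a and Hnf4aos may have been counted for either. Nr5a2 had 392 and 318 TMM-scaled CPM in aged, against 255 and 208 in young libraries, again apart without passing (0.62 ± 0.35, SE, edgeR adjusted p = 0.386). Cebpa went the other way, with 43.3 and 45.1 TMM-scaled CPM in aged, against 64.3 and 120 in young libraries (-1.06 ± 0.37, SE, edgeR adjusted p = 0.215). The aged Cebpa values were close together, and the young ones lay farther from each other than the lower of them from the aged. Without young replicate 1, which leaves 1 young library, the Cebpa log2 fold change was -1.43.

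The other 6 factors overlapped between the groups. Foxa1 stood at 26.9 and 28.9 TMM-scaled CPM in aged, against 28.8 and 34.5 in young libraries, and Foxa2 at 81.6 and 56.5 against 77.2 and 75.2. Foxa3 differed more within a group than between groups, with 32.2 and 111 TMM-scaled CPM in aged, against 72.2 and 139 in young libraries (log2 fold change -0.56 ± 0.58, SE, edgeR adjusted p = 0.651). Onecut1 lay at 678 and 810 TMM-scaled CPM in aged, against 883 and 578 in young libraries. Onecut2 lay at 484 and 487 in aged, against 830 and 427 TMM-scaled CPM in young libraries, so young 1 alone stood high. Prox1 had 255 and 172 TMM-scaled CPM in aged, against 238 and 210 in young libraries, and Prox1os 266 and 197 against 195 and 90.6. The standard errors of these log2 fold changes ran from 0.30 for Foxa1 to 0.58 for Foxa3, so similar means do not show that the levels are the same.

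**Figure D3:**
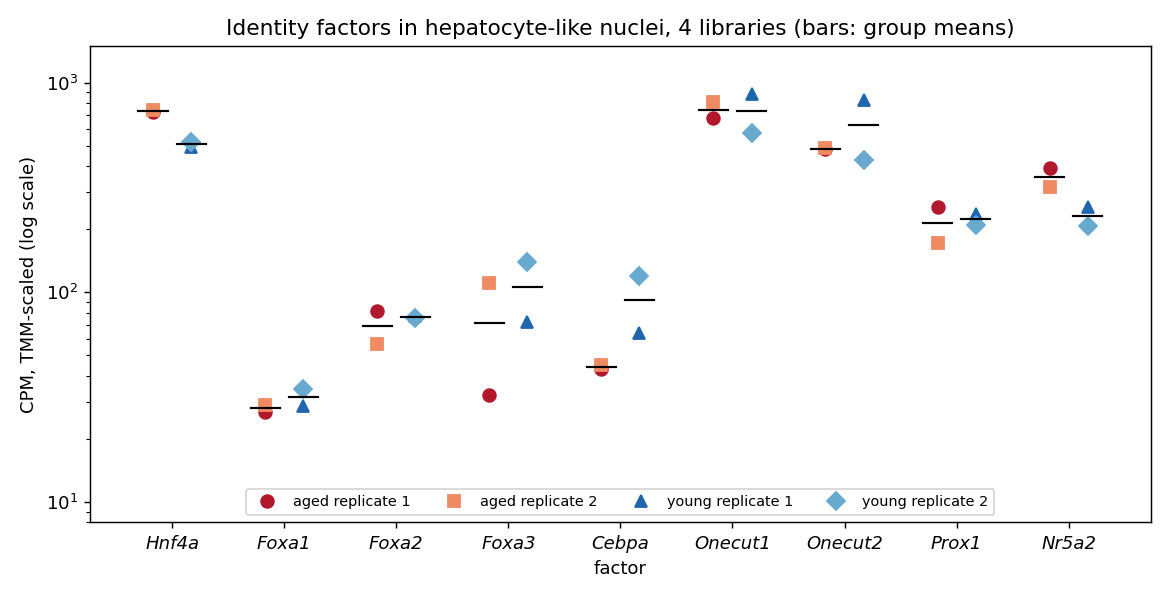
TMM-scaled CPM (log axis) of each factor in hepatocyte-like nuclei, 1 point per library, aged left of young, with bars at the group means. Hnf4a and Nr5a2 lie higher and Cebpa lower in both aged libraries, and the groups overlap for the other 6 factors.

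The share of hepatocyte-like nuclei with a UMI, after thinning each nucleus to 1000 UMIs, lay apart between the groups for 4 factors, the 3 whose levels lay apart and Onecut2. By level, 51.5% of all genes lay apart in either direction, and shares were not counted over all genes. For Hnf4a the share was 50.7% and 51.2% in aged, against 33.6% and 43.6% in young libraries (exact permutation p = 0.333, the smallest that 2 against 2 libraries can give). For Cebpa it was 4.17% and 3.82% in aged, against 6.19% and 11.3% in young libraries, and for Nr5a2 30.0% and 25.9% against 19.8% and 20.5% (exact permutation p = 0.333 for each). For Onecut2, whose levels overlapped, the shares were 36.3% and 37.0% in aged, against 50.3% and 37.5% in young libraries (exact permutation p = 0.333), with young 2 close to the aged. The thinning left out 1547 and 1133 aged and 67 and 5100 young nuclei. Thinned to 500 UMIs, which left out no nuclei, the shares of Hnf4a, Cebpa and Nr5a2 still lay apart. Those of Onecut2 then overlapped, at 18.7% and 20.1% in aged, against 29.9% and 19.2% in young libraries. Unthinned, the Hnf4a shares were 69.6% and 78.9% in aged, against 71.0% and 43.3% in young libraries, and no factor had shares that lay apart. Macrophage-like nuclei, which should lack Hnf4a, held an Hnf4a UMI in 15.0% and 28.0% of aged and 37.0% and 40.8% of young nuclei, thinned to the same depth from a median of 1736.5 and 1838 UMIs in aged and 4427 and 1511 in young libraries. The hepatocyte-like nuclei thinned had medians of 3163 and 3401 in aged and 3734 and 1398 UMIs in young libraries. In the young libraries the share of nuclei with an Hnf4a UMI was thus about as high in macrophage-like as in hepatocyte-like nuclei, a background level at which the share alone does not mark expression.

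Among the lists read beside the factors, no member passed between ages in hepatocyte-like nuclei. Of the 34 other liver factors, 17 were positive and 17 negative, with a median log2 fold change of 0.03 against -0.02 over all genes. The smallest p values belonged to Nr2f6, with 30.6 and 34.3 TMM-scaled CPM in aged against 82.2 and 131 in young libraries (-1.72 ± 0.35, SE, edgeR adjusted p = 0.135), and to Cebpb, with 121 and 80.6 against 486 and 288 (-1.94 ± 0.42, SE, edgeR adjusted p = 0.137). Nr1h3 (LXR alpha) followed at -0.80 ± 0.30 (SE). Of the 32 target genes, 10 were positive and 22 negative (median -0.17). The bile acid enzyme Cyp8b1 had 2.37 and 2.77 TMM-scaled CPM in aged against 11 and 22.5 in young libraries, and the amino acid enzyme Tat 133 and 262 against 1833 and 784. The glucose-releasing enzyme G6pc stood at 85.6 and 53.1 in aged, against 1093 and 193 TMM-scaled CPM in young libraries. These 3 targets had edgeR adjusted p values of 0.117, 0.141 and 0.158 for Cyp8b1, Tat and G6pc. The paralogs Prox2 (1.17 ± 0.45, log2, SE), Hnf4g and Cebpd did not pass, and Onecut3 and Nr5a1 did not clear the low-count filter.

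Of the fetal or ductal genes that adult hepatocytes keep low, 6 of 13 were tested by age and none passed. Afp, the fetal albumin-like protein, had 44 and 32.3 TMM-scaled CPM in aged, against 0.967 and 5.43 in young libraries (log2 fold change 3.50 ± 0.66, SE, edgeR adjusted p = 0.123). Igf2bp3 had 39.7 and 21.1 in aged, against 7.9 and 13 TMM-scaled CPM in young libraries (1.53 ± 0.44, SE, edgeR adjusted p = 0.176). Spp1 had 4.85 and 7.98 in aged, against 4.03 and 125 TMM-scaled CPM in young libraries, so its mean difference rested on young 2.

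Outside hepatocytes the factors are expected to be low or absent in most classes, yet their RNA was counted in all of them, together with hepatocyte marker RNA. In endothelial-like nuclei the median of the 12 hepatocyte markers stood at 42.1% and 86.2% of the hepatocyte-like level in aged and 89.8% and 76.6% in young libraries, and Hnf4a at 33% and 89.8% against 75% and 86.4%. In macrophage-like nuclei the markers stood at 52.6% and 67.1% in aged and 91.4% and 84.8% in young libraries, and Hnf4a at 50.9% and 59.1% against 105% and 82.4%. The Hnf4a percentages ran close to those of the markers, with Cebpa, also a known myeloid factor, at 123% and 86% in aged and 86.9% and 85.8% in young macrophage-like nuclei. Prox1, a known factor of lymphatic endothelium, was at 40% and 93.7% in aged and 74.9% and 78.7% in young endothelial-like nuclei, near the markers. Of 5 lymphatic markers, Pdpn had no UMI in 3 of the 4 endothelial-like sums and Ccl21a at most 2. Flt4, which liver sinusoids are also known to express, had 407 and 97.6 unscaled CPM in aged and 156 and 125 in young endothelial-like nuclei, against 2.05 to 9.29 in hepatocyte-like ones. Mmrn1 had 22.0 and 1.06 in aged and 35.6 and 7.86 unscaled CPM in young endothelial-like nuclei (4 to 10 UMIs), against at most 0.895 in hepatocyte-like ones. Reln had 63.3 and 57.2 in aged and 22.3 and 48.8 unscaled CPM in young endothelial-like nuclei, against 16.7 to 37.0 in hepatocyte-like ones. Flt4 and Mmrn1 thus lay above the hepatocyte-like range in every library, and the ranges of Reln overlapped. By mean unscaled CPM over libraries with at least 20 nuclei, hepatocyte-like nuclei came first for Hnf4a (622 ± 132, against 457 ± 63.2 in T/NK-like nuclei), Foxa1, Foxa2 and Onecut1 (SD, n = 4 and n = 3). For Hnf4a the ranges overlapped, at 457 to 747 in hepatocyte-like and 388 to 512 in T/NK-like nuclei. Foxa1 (30.0 ± 5.53, against 28.9 ± 8.91 in T/NK-like), Foxa2 and Onecut1 did not differ from the next class beyond the spread. Cebpa (77.6 ± 74.6 in T/NK-like, 70.0 ± 42.7 in hepatocyte-like) and Foxa3 (92.7 ± 68.2 in B-cell-like, 91.0 ± 53.4 in hepatocyte-like) were level across the first 2 classes. The part of carried-over RNA in these levels was not tested.

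Cholangiocyte-like nuclei, the cells of the bile ducts, were the class in which 2 of the factors exceeded the hepatocyte level. They were few, with 35 and 114 nuclei in aged and 12 and 225 in young libraries. Onecut2 had 998 and 1050 unscaled CPM (65 and 188 UMIs) in aged and 1130 and 650 (42 and 135 UMIs) in young cholangiocyte-like nuclei, which is 212%, 214%, 147% and 138% of the level in hepatocyte-like nuclei of the same library. Prox1 had 476 and 434 unscaled CPM in aged and 242 and 361 in young cholangiocyte-like nuclei, or 192%, 251%, 110% and 156% of the hepatocyte-like level. The young 1 value of Prox1 rests on 9 UMIs, with an exact Poisson interval of 111 to 459 CPM that covers counting error only. The hepatocyte markers there had a median of 31.6% and 56.5% in aged and 48% and 63.7% in young libraries, and each of the 12 stood below Onecut2 and below Prox1 in every library. Onecut1 reached 114% and 81.3% in aged and 42.8% and 72.5% in young cholangiocyte-like nuclei, and Hnf4a 32.5% and 49.2% against 82.3% and 49.3%. Nr5a2 averaged 293 ± 60.7 unscaled CPM in the 3 libraries with at least 20 cholangiocyte-like nuclei, level with 292 ± 72.6 in hepatocyte-like nuclei (SD, n = 3 and n = 4). The paralog Hnf4g stood far above its hepatocyte-like level here, at 368 and 206 unscaled CPM in aged and 80.7 and 164 in young cholangiocyte-like nuclei, against 9.15, 7.65, 11.8 and 9.99 in hepatocyte-like nuclei. Clusters were drawn from these same nuclei, so classes are described and not tested against each other.

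**Figure D4:**
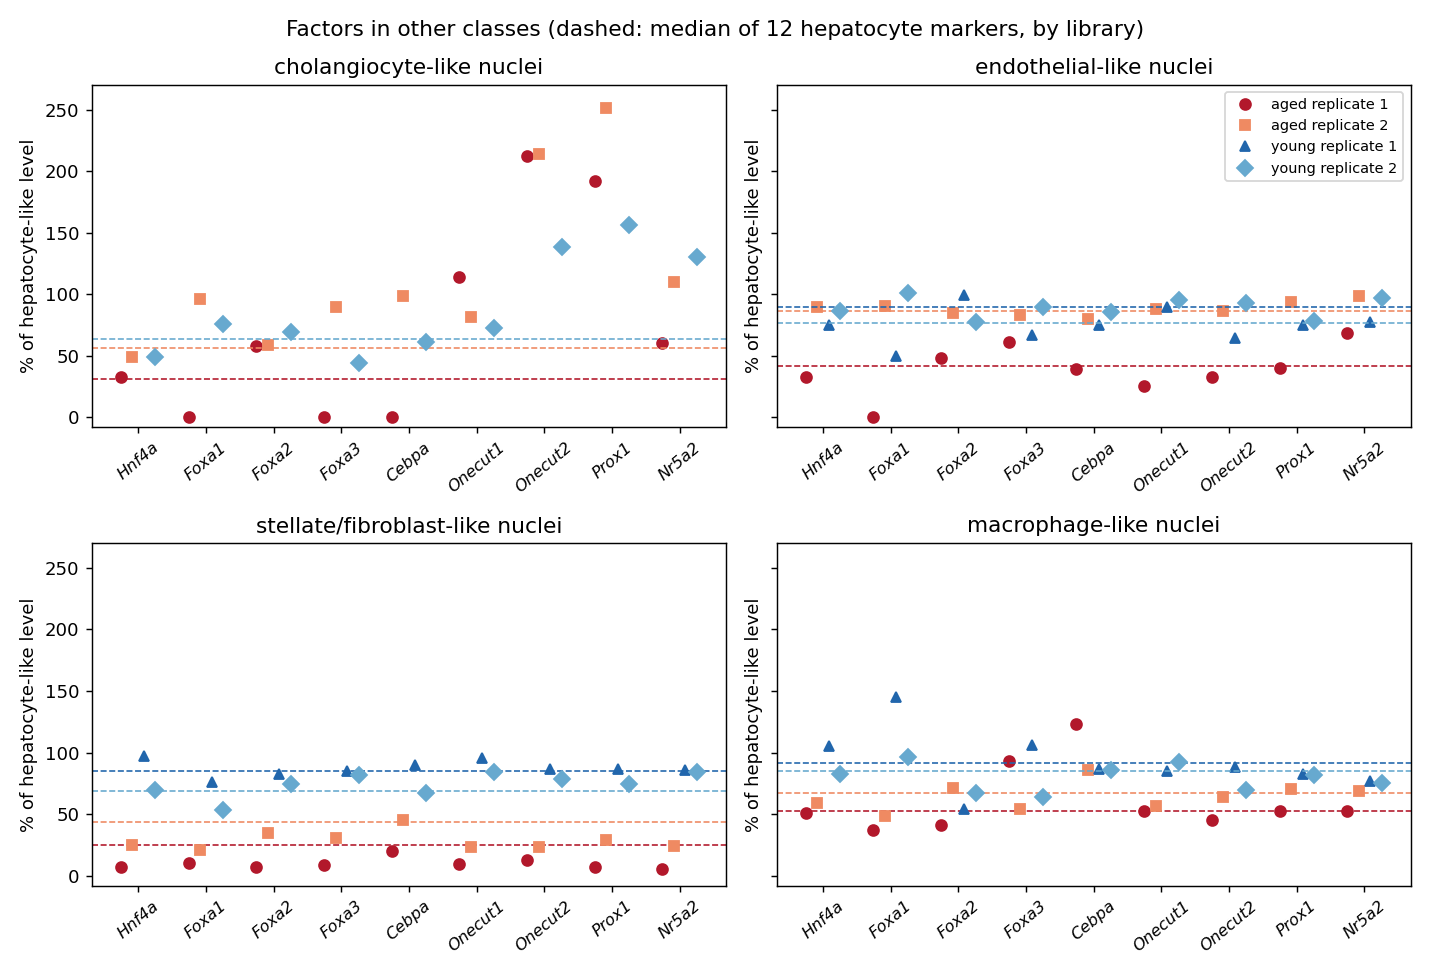
Level of each factor as a percentage of its level in hepatocyte-like nuclei of the same library (unscaled CPM), in 4 other classes, 1 point per library with at least 20 nuclei, aged left of young, and dashed lines at the median of the 12 hepatocyte markers in that library. Onecut2 and Prox1 lie far above the lines in cholangiocyte-like nuclei, and all 9 factors lie lower in aged than in young stellate/fibroblast-like nuclei.

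Stellate cells store retinoids, and with fibroblasts they make matrix. In the class named for both, 5 of the 9 factors passed as lower in aged than in young libraries, where 4.64% of 12234 genes passed in that direction. These were Cebpa, Foxa2, Onecut1, Onecut2 and Prox1, and all 9 had both aged below both young libraries, as 31.9% of genes did. Onecut2 had 58.4 and 114 unscaled CPM in aged, against 664 and 371 in young libraries (log2 fold change -2.54 ± 0.53, SE, edgeR adjusted p = 0.0263). Cebpa had 8.34 and 20.5 in aged, against 53.7 and 89.5 unscaled CPM in young libraries (-2.03 ± 0.45, SE, edgeR adjusted p = 0.0292). Prox1, Foxa2 and Onecut1 followed at log2 fold changes of -2.26 ± 0.49, -1.93 ± 0.48 and -2.32 ± 0.59 (SE, edgeR adjusted p = 0.0278, 0.0386 and 0.04). The median log2 fold change of the 9 factors was -1.93. Most hepatocyte markers were lower as well, by less in the median (-0.54, ranging from -2.65 to 0.72). Of the 12 markers, 10 were lower in the aged and 1 passed. The marker median stood at 24.8% and 43.8% of the hepatocyte-like level in aged and at 84.7% and 68.6% in young stellate/fibroblast-like nuclei.

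Different clusters also held the class in the groups. Most nuclei of the class lay in cluster 16 in the aged libraries (317 and 1200, against 130 and 182 young nuclei) and in cluster 10 in the young ones. Within cluster 16, a comparison added after the data were seen, the markers stood at 24.5% and 42.7% in aged, against 31.7% and 47.5% in young libraries. Hnf4a there had 50.3 and 171 unscaled CPM in aged, against 126 and 124 in young libraries, and Onecut2 55.9 and 112 against 48.8 and 117. Only Hnf4a, Onecut1, Onecut2, Prox1 and Nr5a2 cleared the low-count filter within that cluster, and none passed (0 of 5211 genes in edgeR, 417 at an unadjusted p under 0.05), with log2 fold changes of -0.02 ± 0.57 for Hnf4a and 0.16 ± 0.54 for Onecut2 (SE). The lower level in the class as a whole was not seen among the nuclei of the cluster that both groups share. That cluster was drawn from these same nuclei, and its hepatocyte marker score was lower than that of cluster 10 (-1.064 against -0.136). The comparison also rests on few UMIs, with 18 of Hnf4a in each young library. The cause of the lower level in the whole class was not tested. Without aged replicate 1 none of the 9 factors passed in the whole class, and without any other single library 8 did. With doublets left in, or at a Leiden resolution of 0.5, the class was drawn differently and none passed.

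Endothelial-like and macrophage-like nuclei gave no factor that passed. In endothelial-like nuclei 0% of 9583 genes passed in edgeR (450 at an unadjusted p under 0.05, and 11 in DESeq2), and the median log2 fold change of the factors was -0.54 (7 of 9 negative) beside a marker median of 0.05 (6 of 12 negative). In macrophage-like nuclei 0% of 8502 genes passed in edgeR (1606 at an unadjusted p under 0.05, and 152 in DESeq2), with a factor median of -0.70 beside a marker median of -0.41. The remaining classes had under 20 nuclei in at least 1 library and were not tested.

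The genes whose levels ran most like each factor over 28 sums per library and class are given by Pearson's r of log2(CPM + 1), as a description, since the sums share libraries and carried-over RNA. Hnf4a ran closest to Slc25a13 (0.973), Cyp2j5 (0.965) and Abcb4 (0.963). For Onecut1 these were Map7 (0.981), Reps2 (0.972) and Slc22a23 (0.968). Cebpa was nearest to Srebf1 (0.953), Glyctk (0.949) and Tedc2 (0.94), and Nr5a2 to Ngef (0.879), Pde4d (0.872) and Sntb1 (0.86). Nearest to Foxa1 were Xylb (0.927), AI463229 (0.902) and Acsm1 (0.895). Its sister Foxa2 had Eci1 (0.945), Anks4b (0.933) and Habp2 (0.932), and Foxa3 had Caln1 (0.931), Ccdc84 (0.93) and Fmo5 (0.928). Onecut2 and Prox1 had each other among their nearest 3 genes of 9737 (r = 0.908), together with Lurap1l (0.909 with Onecut2 and 0.89 with Prox1) and Erbb4 (0.901 and 0.884). Among the 9 factors, Cebpa ran closest to Foxa3 (0.767) and Foxa1 (0.758) and least like Onecut2 (0.175), Onecut1 (0.2) and Prox1 (0.204).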

How the data were processed

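The authors deposited, for each of 2 aged and 2 young libraries, a matrix of UMI counts. Per the file headers it is Cell Ranger output (7.1.0), and the submitters' processing notes name mm10 as the build. The sources used here give neither the annotation release nor the handling of introns and strand. Every deposited barcode already held at least 500 UMIs. Barcodes with at least 300 genes and at most 5% mitochondrial UMIs were kept, and the highest Scrublet scores were removed at 0.8% per 1000 barcodes (3927 nuclei). The automatic Scrublet threshold marked 2. Nuclei were clustered with scanpy 1.11.5 and igraph 0.11.9 (2000 variable genes without the 9 factors, 30 components, 20 neighbours, Leiden resolution 1) and named "-like" from at least 3 detected markers, by score limits set after the data were seen. One cluster of mixed markers stayed unnamed (501 and 255 aged, 7 and 12 young nuclei).

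Counts were summed per library and class or zone part and tested with edgeR 4.0.16 in R 4.3.3 (filterByExpr, TMM, quasi-likelihood F test, Benjamini-Hochberg over all genes tested, threshold 0.05), and with DESeq2 1.42.0 as an alternative. The scripts were tested on simulated data. Unscaled CPM divide by the plain sum of a class, and TMM-scaled CPM by that sum times its TMM factor. A class needed at least 20 nuclei in every library for a test by age. Shares are of nuclei thinned to 1000 UMIs. Libraries of a group were no copies of each other, with a chi-square per degree of freedom of 113 (aged) and 61 (young). The labels give replicate numbers and name no pairing of libraries. Deviations of same-numbered libraries from their group means correlated at -0.219. With 2 libraries per group this is a single value, which cannot show whether libraries were prepared in pairs. The members, lists and tests were chosen with earlier results of these data known. All 9 factors are named, then of each list the members past the threshold (at most 5) or the 3 smallest p values, and for each factor the 3 genes nearest by Pearson's r. One gene that this rule names is not reported here.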

Additional observations from a re-analysis of the deposited data

How the results depend on the processing

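No factor passed with age in hepatocyte-like nuclei under any of the 15 alternatives. Over all genes the count of 7 became 1478 without the low-count filter, 807 in DESeq2, 2 with at least 1000 UMIs, 2 with at most 1% mitochondrial UMIs, 1 over all kept nuclei, 3 over equal numbers of thinned nuclei, and 209 to 1394 with 1 library left out. The replicate block gave 10, with no factor. In the labels the libraries it joins share only a number. The crossed pairing, added after the data were seen, gave 335 in hepatocyte-like, 3614 in stellate/fibroblast-like and 319 in macrophage-like nuclei, with 9 stellate/fibroblast-like factors and 3 list members. With 1 library left out, the age log2 fold change ranged from -0.41 to 0.14 for Foxa2, -1.68 to 0.0899 for Foxa3, -0.22 to 0.38 for Onecut1, -0.75 to 0.20 for Onecut2 and -0.36 to 0.22 for Prox1; Onecut1 was -0.0743 over all kept and -0.0182 over equal thinned nuclei.

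Without the replicate block, 0 factors and 248 genes passed between zones, against 4 and 2773 with it; with 1 library left out the genes ran from 1796 to 2525. Cebpa changed sign between zones, at 0.0043 with 2 equal parts, 0.0024 with doublets left in, and -0.114 to 0.0867 with 1 library left out. The zone by age count of 11 became 182 without the filter, 17 with 2 equal zone parts, 0 with at least 1000 UMIs, 7 with short landmark lists, 0 with the replicate block and 0 to 151 with 1 library left out, and the Onecut1 term ran from -0.11 to 0.29.

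In stellate/fibroblast-like nuclei the 5 factors became 9 without the filter, 3 with the replicate block, 8 in DESeq2, 8 with at most 1% mitochondrial UMIs, 0 with doublets left in, 0 at Leiden resolution 0.5, 0 in the shared cluster (Onecut1 0.18, Onecut2 0.16) and 0 to 8 with 1 library left out. Its 1561 genes became 2961, 754 with the block, 0 in the last 3 settings and 879 to 2925. Endothelial-like nuclei gave 107 genes without the filter, 11 in DESeq2, 1 with doublets left in, 1 at Leiden resolution 0.5 and 0 to 832 (0 to 3 factors) with 1 library left out. Macrophage-like nuclei gave 152 in DESeq2, 2 with at most 1% mitochondrial UMIs and 75 to 666 (0 to 1 factors). List members past the threshold with age numbered 11 without the filter, 7 in DESeq2 and 5 to 12 with 1 library left out. No factor had shares apart when nuclei were not thinned, and 3 in place of 5 factors had a higher mean in another class than in hepatocyte-like nuclei with doublets left in. Macrophage-like nuclei had no such class to test with doublets left in or at resolution 0.5. The cause of these changes was not tested.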

Other observations

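Of the fetal or ductal genes, 4 of 13 were tested between zones and 3 passed as lower in pericentral nuclei, as 10.7% of all genes did. Afp had a log2 fold change of -0.94, the ductal factor Sox9 -1.41 and the matrix protein Spp1 -0.58 (edgeR adjusted p = 0.00205, 0.00244 and 0.0206). In young 1, Afp (1.41 against 0.56 TMM-scaled CPM) and Spp1 (5.16 against 2.8) were instead higher in the pericentral part. Afp had only 6 and 60 UMIs in the hepatocyte-like nuclei of young 1 and young 2. The antisense genes Hnf4aos (0.02) and Prox1os (0.13) did not pass between zones.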
